A study of Mus musculus with 2 samples.

Results

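The genes described here mark mast cells and basophils: the proteases Cpa3, Mcpt1, Mcpt2, Mcpt4, Mcpt8, Cma1 and Tpsb2, the IgE receptor chains Fcer1a and Ms4a2, and the growth factor receptor Kit. They were taken by name from the gene column of both scanner files, which gave 10 genes with 11 probes out of 27969 genes with 41174 probes. The group was chosen because Cpa3 and Mcpt4 were higher in the deficient pool of the Foxp3Cre array, so all values of that array are given as a description with no test. Both arrays compared sorted regulatory T cells (Tregs, CD4 T cells defined by the transcription factor Foxp3) lacking Bcl11b, a zinc finger factor of the T cell lineage, with wild-type Tregs on a C57BL/6 background. On the Foxp3Cre array, Tregs from Bcl11bF/F/Foxp3Cre mice, in which Cre acts in cells that already express Foxp3, were set against Tregs from 3 pooled wild-type mice. On the Cd4Cre array, Foxp3-GFP+ Tregs from Bcl11bF/F/Cd4Cre/Foxp3-GFP+ mice, in which Cre is active from the CD4-expressing stage of thymocytes on, were set against Foxp3-GFP+ Tregs from 3 pooled wild-type mice. Only 1 array's cells are labelled Foxp3-GFP+, and the series design ties that reporter to the Cd4Cre system. The labels give neither age, the sort of the other cells, nor the number of deficient mice. Deficient RNA was labelled with Cy5 and wild-type RNA with Cy3 on both arrays, so dye and genotype cannot be told apart. With 1 array per Cre system no difference has a replicate check, and none was tested. After normalization, the log2 ratios of the targeted gene Bcl11b were -1.82 and -0.32 with its 2 probes on the Foxp3Cre array, and -2.46 and -1.19 on the Cd4Cre array. The second probe was thus nearly even on the Foxp3Cre array (1.24-fold lower). Its intensity there before normalization was 2295 in the deficient pool and 1969 in the wild-type pool. Whether these probes lie in the deleted stretch is not known here, so they check the labels only in part. Of the names above, the IgE receptor chains Fcer1a and Ms4a2 were well above background in no pool, so the genes are described one by one and no pool is said to hold mast cells or basophils.

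Mast cells and basophils are granule-bearing cells that carry IgE on the receptor FceRI, of which Fcer1a encodes the binding chain and Ms4a2 the beta chain. Mast cells depend on KIT, the receptor for stem cell factor, and store proteases in their granules: carboxypeptidase A3 (Cpa3), chymases and tryptases. In mice, Mcpt4, Cma1 (also called Mcpt5) and the tryptase Tpsb2 are typical of connective tissue mast cells, Mcpt1 and Mcpt2 of mucosal mast cells, and Mcpt8 of basophils. Kit is also made by blood stem and progenitor cells. The transcription factors GATA1 and GATA2 act in both cell types, on sites with the core letters GATA.

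The upstream sequences of Mcpt4 and Mcpt1 are shown because they are alike although the signals of the genes differed. Those of Cpa3 and Cma1, which like Mcpt4 were higher on the Foxp3Cre array, are shown beside them. Each is the 250 bases before the annotated start (RefSeq, GRCm38.p6), 5' to 3' on the gene's strand, with GATAA or its reverse complement TTATC in capitals. They lie at chr3:20242182-20242431 for Cpa3, and on chromosome 14 at chr14:56062311-56062560 for Mcpt4, chr14:56017714-56017963 for Mcpt1 and chr14:55944676-55944925 for Cma1. Mcpt1 is on the plus strand and the others on the minus strand.
Cpa3: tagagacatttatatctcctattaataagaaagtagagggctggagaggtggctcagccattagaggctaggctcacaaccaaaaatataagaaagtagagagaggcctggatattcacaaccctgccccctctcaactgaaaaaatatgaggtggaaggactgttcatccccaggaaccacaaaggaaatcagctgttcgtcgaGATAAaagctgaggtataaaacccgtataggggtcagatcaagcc
Mcpt4: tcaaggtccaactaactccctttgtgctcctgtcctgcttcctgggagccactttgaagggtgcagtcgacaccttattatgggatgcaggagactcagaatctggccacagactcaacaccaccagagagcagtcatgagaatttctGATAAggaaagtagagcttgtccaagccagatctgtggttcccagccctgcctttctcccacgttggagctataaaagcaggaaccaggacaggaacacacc
Mcpt1: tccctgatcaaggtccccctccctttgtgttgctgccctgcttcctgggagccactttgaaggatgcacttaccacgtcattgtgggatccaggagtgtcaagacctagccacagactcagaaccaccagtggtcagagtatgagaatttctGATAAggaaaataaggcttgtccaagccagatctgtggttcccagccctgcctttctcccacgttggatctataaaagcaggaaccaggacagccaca
Cma1: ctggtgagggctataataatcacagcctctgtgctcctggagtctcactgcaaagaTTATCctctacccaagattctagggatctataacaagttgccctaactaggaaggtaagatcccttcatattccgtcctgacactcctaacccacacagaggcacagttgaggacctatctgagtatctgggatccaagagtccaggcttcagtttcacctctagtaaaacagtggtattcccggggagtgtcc

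Mcpt4 and Mcpt1 were identical at 207 of 254 aligned columns (81.5%) of this window, and both held 1 GATAA match, 102 and 98 bases before the start. The other 27 pairs of members had between 38.6% and 51.5% identity. Cpa3 held GATAA 45 bases before its start and Cma1 its reverse complement 194 bases before. Upstream windows were found for 8 of the 10 members, Tpsb2 and Mcpt2 having none in the table used. GATAA on either strand was in 6 of the 8 (Cpa3, Mcpt1, Mcpt4, Cma1, Fcer1a, and Ms4a2 with 3 matches) and in 22.6% of all 32851 windows of this length. The E-box CANNTG, read by factors such as MITF, was in 4 of the 8 and in 66.2% of all windows. The STAT motif TTCNNNGAA was in 0 of the 8 and in 7.02% of all windows. Both strands were searched, overlaps between the motifs were not removed, the motifs were chosen with the expression values known, and a match is only a match of letters.

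The probes of the members lie, in the mm9 coordinates of the files, at chr3:20115674-20115733 for Cpa3, chr14:56678589-56678648 for Mcpt4, chr14:56560454-56560513 for the brighter probe of Cma1, chr14:56638928-56638987 for Mcpt1, chr14:56662265-56662324 for Mcpt2, chr17:25504458-25504517 for Tpsb2, chr1:175152865-175152924 for Fcer1a, chr19:11691778-11691837 for Ms4a2 and chr5:76052287-76052346 for Kit. The files list an mRNA of its gene for each probe, and do not say which part of the transcript it reads. The probe of Mcpt8 (chr14:56702300-56702674) and the other probe of Cma1 (chr14:56561491-56562550) have 60 bases but span 375 and 1060 bases of genome, so both read across an intron. They are printed because they read spliced RNA of related proteases, with their longest shared run, of 7 bases, in capitals.
Mcpt8: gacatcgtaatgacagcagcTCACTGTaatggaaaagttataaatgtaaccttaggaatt
Cma1: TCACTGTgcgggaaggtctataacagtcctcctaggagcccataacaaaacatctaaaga

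Over the 54 pairs of probes from different members the longest shared run was 8 bases. Whether a probe also reads another protease transcript was not tested.

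**Figure D1:**
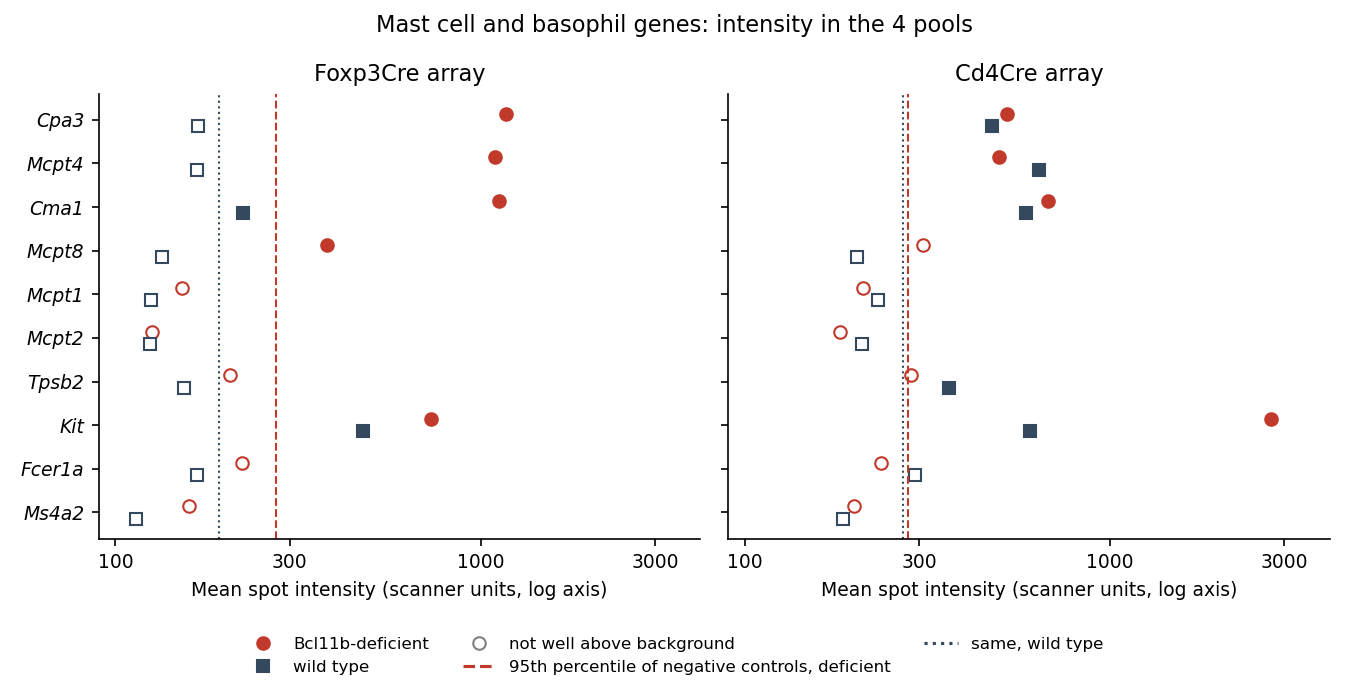
Deposited mean spot intensity (x axis, scanner units, log axis) of the brightest probe of each member (y axis) in the Bcl11b-deficient pool (red circles) and the wild-type pool (dark squares) of the Foxp3Cre array (left) and the Cd4Cre array (right). Open symbols were not well above background, and the vertical lines are the 95th percentile of the negative control spots in each channel. Cpa3, Mcpt4 and Cma1 stand apart between the pools on the Foxp3Cre array and Kit on the Cd4Cre array.

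On the Foxp3Cre array, Cpa3, Mcpt4 and Cma1 were well above background in the deficient pool and at or near background in the wild-type pool. The scanner software calls a spot well above background from its own background estimate, and a gene is called detected here where its brightest probe was so in at least 1 channel. The 153 negative control spots, which match no mouse transcript, give the level without signal: their intensity had a median of 148 and a 95th percentile of 276 in the deficient channel, against 128 and 192 in the wild-type channel. Of the members, 5 were detected on this array, 2 of them in both channels.

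Cpa3, which trims the ends of peptides cut by the other granule proteases, had an intensity of 1174 in the deficient pool and 169 in the wild-type pool. Only the deficient signal was well above background, so the ratio is a bound: Cpa3 was at least 5.40-fold higher (log2 2.43). The scanner software's own ratio for this spot was 21.3-fold (log2 4.41, error 0.50 from the software's error model). The wild-type intensity lay within the spread of the control spots, so the upper limit of this difference is not measured.

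Mcpt4, a chymase of connective tissue mast cells, gave nearly the same picture, with an intensity of 1091 in the deficient pool and 167 in the wild-type pool. It was at least 5.08-fold higher (log2 2.35), and 19.6-fold by the software's ratio (log2 4.30, error 0.49). Both deficient intensities lay above every negative control spot of that channel, the highest of which read 785, and both wild-type intensities lay under the 95th percentile of the controls.

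Cma1, an alpha chymase, was measured in both channels, at 1125 in the deficient pool and 224 in the wild-type pool. It was 4.42-fold higher (log2 2.14), and 7.97-fold by the software's ratio (log2 2.99, error 0.37). Its other probe, which spans an intron, read 273 in the deficient pool and 123 in the wild-type pool and was well above background in neither, so the difference was seen with 1 of its 2 probes. The measured log2 ratio of that probe was 1.11, a value from 2 dim channels.

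Mcpt8, the basophil protease, read 379 in the deficient pool and 134 in the wild-type pool. Only the deficient signal was well above background, and the bound was at least 1.69-fold (log2 0.76), under 2-fold. The software's ratio was 11.3-fold (log2 3.50) with an error of 0.78. The deficient intensity lay between the 95th percentile and the maximum of the control spots.

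Kit was nearly even on the Foxp3Cre array. Its probe is printed on 10 spots, which read from 619.7 to 932 (median 709) in the deficient pool and from 388 to 570.1 (median 473) in the wild-type pool. The mean log2 ratio over the spots was 0.29 (1.22-fold) with an SD of 0.07, which is spotting error only. The groups of spots did not overlap in intensity, but these are repeated spots of 1 hybridisation, not replicates, and the channels differ in overall brightness before normalization.

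The other 5 members were not well above background in either channel of the Foxp3Cre array. The mucosal proteases Mcpt1 and Mcpt2 read 152 and 126 in the deficient pool, against 125 and 124 in the wild-type pool. The tryptase Tpsb2 read 207 in the deficient pool and 154 in the wild-type pool. The IgE receptor chains Fcer1a and Ms4a2 read 222 and 159 in the deficient pool, against 167 and 114 in the wild-type pool. All 10 of these intensities lay under the 95th percentile of the control spots of their channel. These genes were not detectable at this signal, which does not show them to be absent.

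A ratio or bound of 2-fold or more is called past 2-fold here. Of the 5 detected members of the Foxp3Cre array, 3 were higher past 2-fold (Cpa3, Mcpt4 and Cma1) and 0 lower, with a median log2 ratio or bound of 2.14. Among all 15186 detected genes, 2.88% were higher past 2-fold and 10.4% lower, with a median of -0.07. Median centring without loess gave 13.4% and 5.50% instead, and the software's ratio 7.61% and 13.3%. Since this contrast chose the members, the count is a description.

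The Cd4Cre array did not enter the choice of the genes. There Cpa3, Mcpt4 and Cma1 were within 1.3-fold of even, the other proteases gave no ratio or bound, and Kit was higher in the deficient pool. The negative control spots had a median of 246 and a 95th percentile of 279.7 in the deficient channel, against 248 and 271 in the wild-type channel. Detected members numbered 5, of which 4 were measured in both channels.

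Kit read from 2312 to 3176 over its 10 spots (median 2747) in the deficient pool and from 516 to 670.0 (median 607) in the wild-type pool. The spots of the pools did not overlap. The mean log2 ratio was 2.38 (5.22-fold higher) with an SD of 0.05 between spots, and the lowest and highest spot gave 2.31 and 2.44. The software's ratio was 6.91-fold (log2 2.79, error 0.33). Kit ranked 230 from the top of 14942 genes with a ratio or bound on this array.

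Cpa3 read 523 in the deficient pool and 477 in the wild-type pool, a log2 ratio of 0.31 (1.24-fold higher). Mcpt4 read 496 in the deficient pool and 638 in the wild-type pool, a log2 ratio of -0.28. Cma1 read 677 in the deficient pool and 588 in the wild-type pool, a log2 ratio of 0.35 (1.27-fold higher). All 6 intensities lay above every negative control spot of their channel, the highest of which read 384 in the deficient and 329.9 in the wild-type channel, so these protease transcripts were measured in both pools. The software's own log2 ratios were 0.47 (error 0.26) for Cpa3, -0.53 (error 0.24) for Mcpt4 and 0.44 (error 0.23) for Cma1, all under 2-fold.

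Tpsb2 read 285 in the deficient pool and 364 in the wild-type pool, where alone it was well above background. The wild-type signal did not exceed the lowest deficient-channel signal called well above background, so no fold is given. The software's ratio for it was -1.41 in log2 with an error of 0.59. Mcpt8 was not detected, at 308 in the deficient pool and 204 in the wild-type pool. Mcpt1, Mcpt2, Fcer1a and Ms4a2 read 210.3, 182, 236 and 199.8 in the deficient pool, against 231, 209, 293 and 186 in the wild-type pool, and were not well above background. The second probe of Cma1 read 311 in the deficient pool and 302 in the wild-type pool and was likewise dim.

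Of these 5 members, 1 (Kit) was higher past 2-fold and 0 lower, with a median of 0.33 over the 4 with a ratio. Among all 15878 detected genes of that array, 11.0% were higher past 2-fold and 10.1% lower, with a median of -0.03, and a count of 1 member is not read as a result. With median centring the shares over all genes were 17.7% and 7.61%, and with the software's ratio 15.1% and 18.7%.

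**Figure D2:**
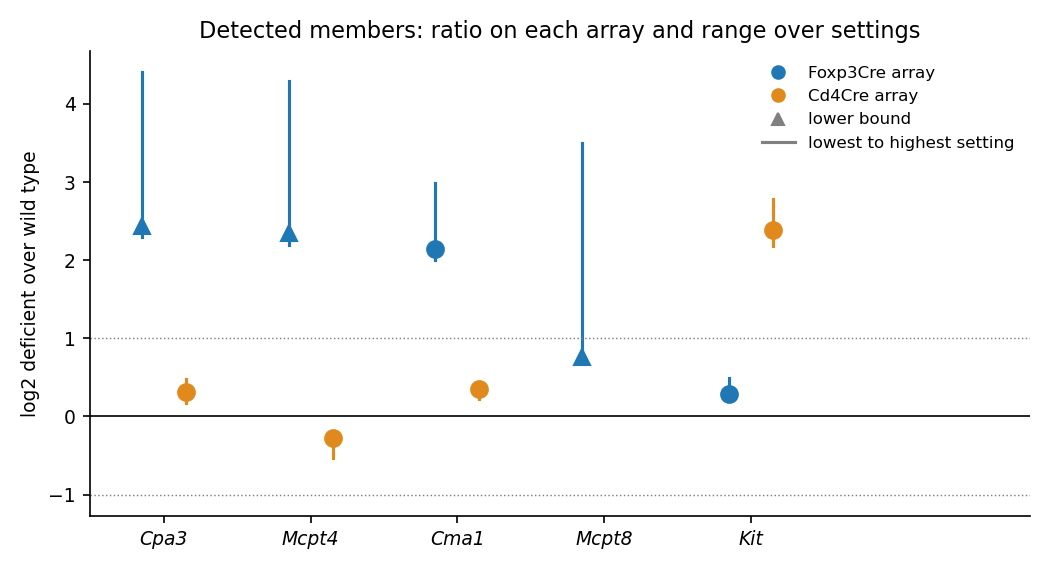
Log2 ratio of Bcl11b-deficient over wild type (y axis) for the members with a ratio or bound (x axis), on the Foxp3Cre array (blue) and the Cd4Cre array (orange). Symbols are the values given in the text, triangles are lower bounds, vertical lines run from the lowest to the highest value over the processing settings, and dotted lines mark 2-fold. Cpa3, Mcpt4 and Cma1 lie above 2 on the Foxp3Cre array only, Kit on the Cd4Cre array only.

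The difference between the arrays had opposite signs for Cpa3, Mcpt4 and Cma1 and for Kit. The log2 ratio on the Foxp3Cre array minus that on its Cd4Cre counterpart was at least 2.12 for Cpa3, at least 2.62 for Mcpt4 and 1.79 for Cma1, and -2.10 for Kit. With 1 array each, these differences were not tested. The slides, scans and software releases differ as well, and cannot be told apart from the Cre system. On a scale set equal between the arrays, the log2 signal of Cpa3 was 10.04 in the deficient and 7.27 in the wild-type pool of the Foxp3Cre array, against 8.78 in the deficient and 8.47 in the wild-type pool of the Cd4Cre array. Mcpt4 read 9.95 in the deficient and 7.26 in the wild-type pool, against 8.71 in the deficient and 8.99 in the wild-type pool of the Cd4Cre array. For both genes the Foxp3Cre deficient pool was highest, the Cd4Cre pools were intermediate, and the Foxp3Cre wild-type pool was lowest and not well above background. For Kit the order was different: 11.41 in the Cd4Cre deficient pool, and between 8.98 and 9.27 in the other pools.

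Likeness to Cpa3 and Mcpt4 over the 4 pools was taken as the Euclidean distance between log2 signals centred on each gene's mean, over 16688 genes detected on at least 1 array. The 5 nearest genes to Cpa3, at distances from 0.45 to 0.66, were the heat shock gene Hspa1a, Cma1, Mcpt4, the X-linked lymphocyte-regulated gene Xlr3c and the chemokine gene Ccl24. The 5 nearest to Mcpt4, from 0.27 to 0.76, were the same with Cpa3 in place of Mcpt4. Since the wild-type signals of Cpa3 and Mcpt4 on the Foxp3Cre array were not well above background, their order is not measured, and the list supports nothing about the members. Hspa1a, for example, read 15.77 in the deficient and 13.37 in the wild-type pool of the Foxp3Cre array, and 14.78 in the deficient and 14.82 in the wild-type pool of the Cd4Cre array. Hspa1a, Xlr3c and Ccl24 were 5.28-fold, 10.2-fold and 3.71-fold higher in the deficient pool of the Foxp3Cre array. The 4 pools of 2 arrays allow no correlation, and the Foxp3Cre difference that chose Cpa3 and Mcpt4 enters this measure.

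In mice, the chymases and several granzymes are encoded side by side on chromosome 14, and 15 genes of this cluster had probes over 318 kb. Higher past 2-fold on the Foxp3Cre array were Cma1, Mcpt4 and cathepsin G (Ctsg, a neutrophil and mast cell protease, 5.31-fold, log2 2.41). Cma2, a chymase gene, and Mcpt8 had bounds of at least 1.52-fold and at least 1.69-fold, while Mcpt1, Mcpt9 and Mcpt2, which lie between Cma1 and Mcpt4, were not detected. In the Cd4Cre comparison those past 2-fold were Ctsg (10.9-fold, log2 3.45) and the granzymes Gzmc (7.61-fold) and Gzmb (4.96-fold), and 0 of the chymases. Gzmc and Gzmb read 0.54 and 0.996 in log2 on the Foxp3Cre array. Of the 10 neighbours that are not members, 4 were detected per array. The Foxp3Cre array had 1 of them higher past 2-fold, with a median of 0.80. Median centring gave 2 there (Gzmb then at 1.38) and a median of 1.01, and the software's ratio a median of 1.81. The Cd4Cre array had 3, with a median of 2.62.

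**Figure D3:**
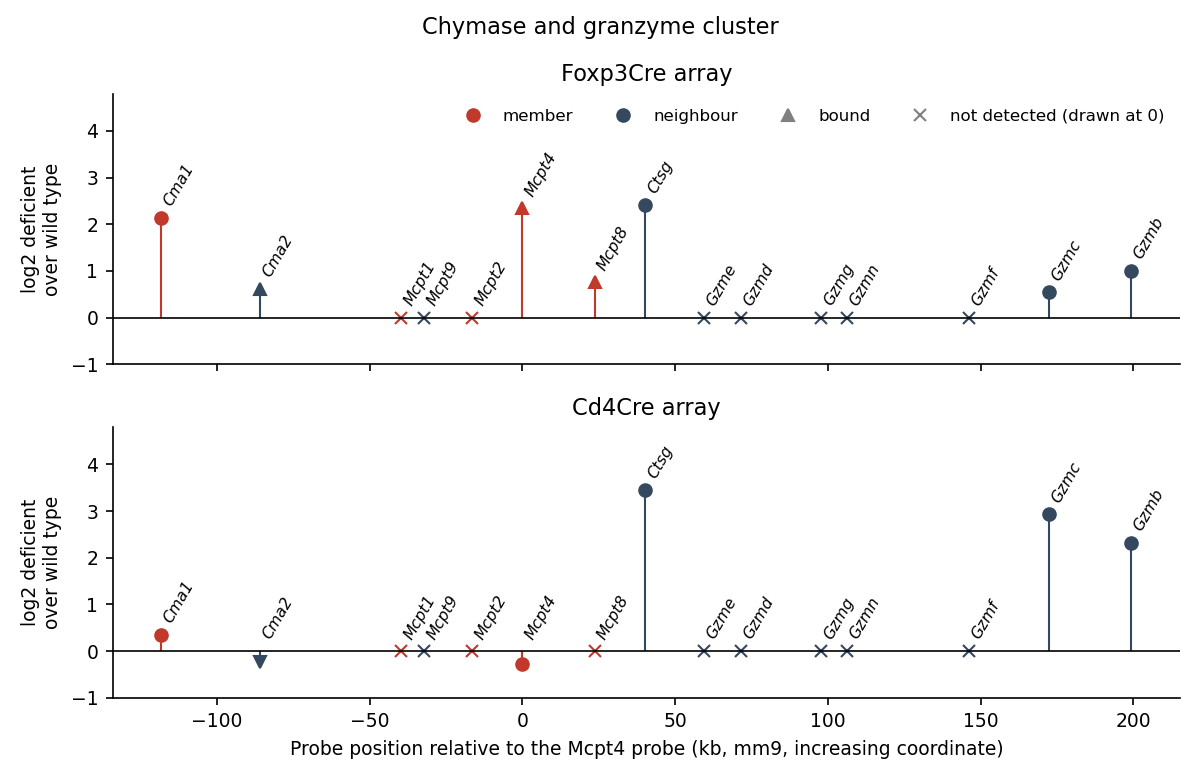
Log2 ratio of Bcl11b-deficient over wild type (y axis) against the distance of each gene's probe from the Mcpt4 probe (x axis, kb) in the chymase and granzyme cluster of chromosome 14, for the Foxp3Cre array (top) and the Cd4Cre array (bottom). Members are red and neighbours dark, triangles are bounds, and crosses at 0 are genes not detected. Cma1 and Mcpt4 stand up on the Foxp3Cre array at either side of undetected members, and Ctsg stands up on both arrays.

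Other genes of these cells lay on both sides of even. Of 29 further mast cell and basophil genes, 3 of which (Ctsg, Gzmb and Mcpt9) are also in the chromosome 14 cluster, 17 were detected on the Foxp3Cre array, with 3 higher past 2-fold, 1 lower and a median of 0.37. The higher ones were Ctsg, the granule proteoglycan gene serglycin (Srgn, log2 1.11) and the basophil protease gene Prss34 (at least 2.01-fold), and the lower one was the heparin-modifying enzyme gene Ndst2 (-1.11). With median centring 5 were higher and 0 lower, Ndst2 then reading -0.91. Cd200r3, a receptor of basophils and mast cells, read 0.84. Tpsab1, Tpsg1, Mrgprb1 and Mrgprb2, which mark connective tissue mast cells, and Mcpt9 were not detected on either array. The Cd4Cre array detected 16 of the 29, with 8 higher past 2-fold, 1 lower and a median of 1.195. The largest were Ctsg, Gzmb (2.31), the FceRI gamma chain gene Fcer1g (2.06), which many myeloid and NK cells also express, and, lower, the cyclooxygenase gene Ptgs1 (-1.91). Srgn and Gzmb were bright in all 4 pools, with log2 signals from 16.18 to 17.29 and from 11.88 to 15.30. The counts of this list are therefore not read as signal of mast cells or basophils. The histamine-forming enzyme Hdc, singled out after its values were seen, read 0.48 on the Foxp3Cre array and 1.88 in the Cd4Cre comparison.

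Genes of IgE receptor and KIT signalling were counted in the same way. Of 19 genes, 18 were detected on each array. With a median of -0.77 on the Foxp3Cre array, 0 were higher past 2-fold and 4 lower: the exchange factor Vav1 (-1.97), the kinase Syk (-1.19), the phosphatase Ptpn6 (-1.003) and the lipid kinase subunit Pik3cd (-1.003). Median centring gave a median of -0.20, 1 higher and 2 lower, with Ptpn6 at -0.21 and Pik3cd at -0.26. Over all detected genes of this array 2.88% were higher and 10.4% lower, or 13.4% and 5.50% with median centring. In the Cd4Cre comparison 5 were higher past 2-fold and 0 lower, with a median of -0.53 that median centring turned to 0.14. The highest were the adaptor Lat2 (2.27) and the kinases Btk (2.18) and Lyn (1.67), with the phospholipase Plcg2 at 1.62. Over all detected genes of that array 11.0% were higher and 10.1% lower. Most of the signalling genes also act in T, B or myeloid cells, and their counts are not read as a result.

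Of 11 transcription factors of mast cells and basophils, 10 were detected on the Foxp3Cre array, with 0 higher past 2-fold, 2 lower and a median of -0.21. The lower ones were the GATA partner Zfpm1 (-1.46) and Stat5b (-1.19), which median centring put at -0.79 and -0.45, with 0 past 2-fold. Log2 signals over the 4 pools ran from 13.18 to 15.55 for Zfpm1 and from 13.65 to 15.50 for Stat5b. Bright in every pool, these genes are not read as signal of mast cells or basophils. The list also does not part factors that promote these cells from factors that oppose them. Gata2 was not detected on either array, and Mitf was not well above background in the deficient pool of the Foxp3Cre array. The Cd4Cre array detected 9 (median 0.42), with the hematopoietic cofactor Lmo2 (1.76) higher and Stat5b (-1.73), Gata1 (-1.39) and Zfpm1 (-1.27) lower past 2-fold. Median centring put Stat5b at -0.97 and Zfpm1 at -0.45 there, with 1 lower past 2-fold and 2 higher. Of 11 cytokine and receptor genes of mast cell growth and type 2 immunity, 3 were detected on the Foxp3Cre array (median 1.48), and the IL-33 receptor gene Il1rl1 (1.49) and Il4 (1.46) were higher past 2-fold. Of 4 detected on the Cd4Cre array, 3 had a ratio or bound, with a median of 1.47 (1.39 with median centring). Csf2 (at least 5.14-fold) and Il4 (1.47) were higher past 2-fold, while Il1rl1 read -0.90. Over all 4 the software's ratio had a median of 0.47. The growth factor genes Kitl and Il3, and Il9, Il5, Il33 and Tslp, were not detected on either array.

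**Figure D4:**
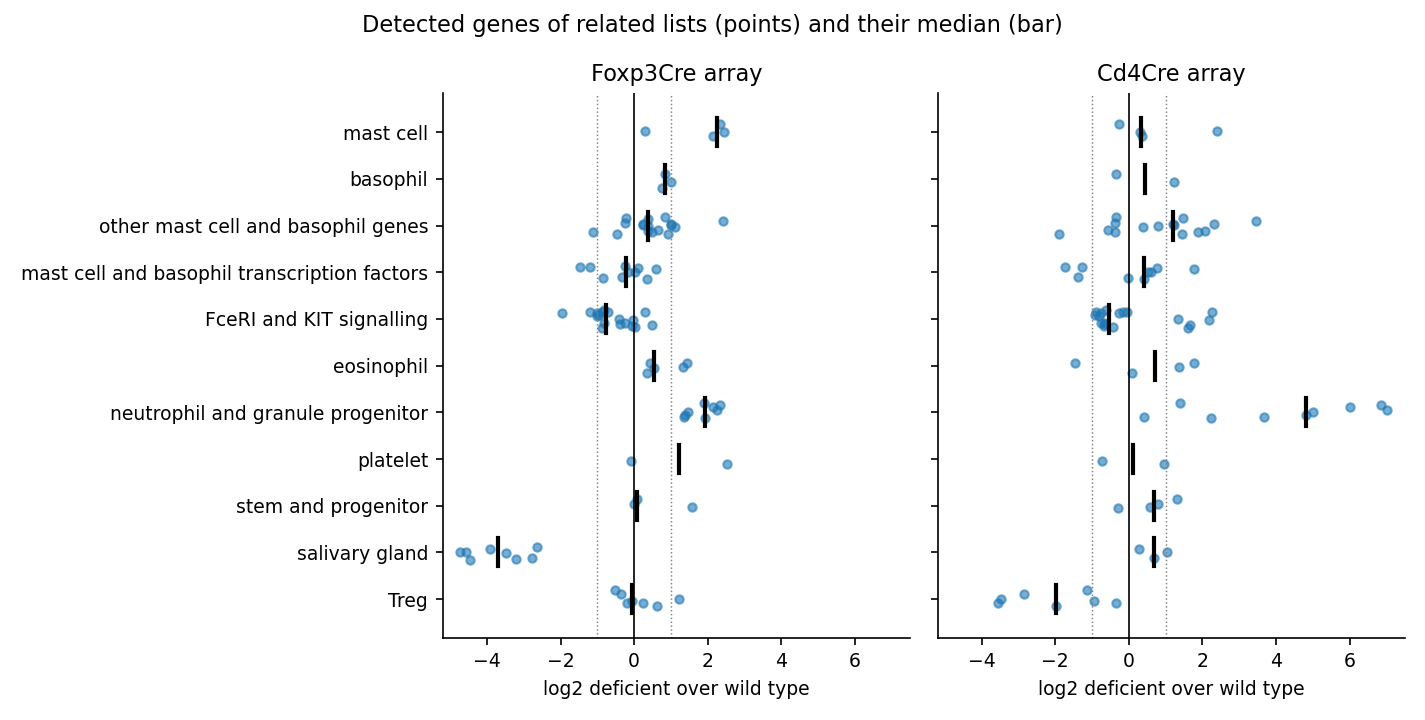
Log2 ratio of Bcl11b-deficient over wild type (x axis) of the detected genes of each list (y axis) on the Foxp3Cre array (left) and the Cd4Cre array (right), with bounds drawn at the bound. Black bars are medians and dotted lines mark 2-fold. The neutrophil list has a median of 1.92 on the Foxp3Cre array and 4.81 on the Cd4Cre array, and the mast cell list 2.24 and 0.33. The 2.24 covers the 4 of 9 mast cell genes detected there and is a description only. Cpa3 and Mcpt4, whose values on that array chose the group, are among them and were well above background only in the deficient pool. The 2 lists are therefore not compared on that array.

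Markers of Tregs and of other cells were read in the same pools. In bulk pools, fewer cells of a type and less RNA per cell cannot be told apart. All 7 genes of the Treg list (Foxp3, Il2ra, Ctla4, Ikzf2, Cd4, Cd3e and Cd3d) were well above background in all 4 pools, though Cd4, Cd3e and Cd3d are T cell genes not particular to Tregs. The list had medians of -0.05 on the Foxp3Cre array (0.34 with median centring) and -1.99 on the Cd4Cre array (-1.72 with median centring). Ctla4 (1.22) was higher past 2-fold on the Foxp3Cre array, where median centring gave 3 higher, and 5 of the 7 were lower past 2-fold in the Cd4Cre comparison, among them Foxp3 (-3.57), Ctla4 (-3.48) and Il2ra (-2.86). Median centring gave 5 lower there as well, and 1 higher (Cd3d, 1.02 in place of -0.34). Of the defining mast cell markers, the receptor chains Fcer1a and Ms4a2 were well above background in no pool. The summed signal of the mast cell markers above background was 3659.9 in the deficient pool and 732 in the wild-type pool of the Foxp3Cre array, and 4178 in the deficient pool and 2092 in the wild-type pool of the Cd4Cre array. Each sum holds only the genes well above background in that pool, so the sums of different pools can cover different genes. The mast cell sums held 4 genes (deficient) and 2 (wild type) on the Foxp3Cre array, and 4 and 5 on the Cd4Cre array. Most of the Cd4Cre deficient sum was Kit. Of the 5 basophil markers (Mcpt8, Fcer1a, Ms4a2, Prss34 and Cd200r3) 3 were detected on the Foxp3Cre array (median 0.84) and 2 on the Cd4Cre array (median 0.44), 1 of them higher past 2-fold on each array (Prss34). Their sums were 2221 in the deficient and 838 in the wild-type pool of the Foxp3Cre array, and 764 in the deficient and 412 in the wild-type pool of the Cd4Cre array. The deficient sums held 3 genes on the Foxp3Cre array and 2 on the Cd4Cre array. Each wild-type sum held 1 gene, Cd200r3, which read -0.34 on the Cd4Cre array, so these sums are not compared as a set.

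Neutrophil and granule progenitor genes were higher on both arrays. All 8 that the Foxp3Cre array detected of 10 were higher past 2-fold, with a median of 1.92. Their summed signal was 165143 in the deficient pool (8 genes above background), against 36156 in the wild-type pool (7 genes). S100a8 read 2.33 and S100a9 2.25, and Elane and Prtn3 were not detected. Of 9 detected in the Cd4Cre comparison, 8 were higher past 2-fold, with a median of 4.81. The summed signal was 246994 in the deficient pool (9 genes above background), against 2461 in the wild-type pool (5 genes). Eosinophil genes (8 on the array) had 2 of 6 detected higher past 2-fold on the Foxp3Cre array (median 0.53), the receptor gene Ccr3 (1.43) and the granule protein gene Prg2 (1.33), with Epx not detected. Of 4 detected on the Cd4Cre array (median 0.72), 2 were higher, Ear1 (1.78) and Prg2 (1.35), and Ccr3 was lower (-1.47). The part of these cells in the values of the members was not tested.

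Salivary gland genes were lower on the Foxp3Cre array: all 8 were detected, and all were lower past 2-fold in the deficient pool, with a median of -3.71. Their summed signal was 5739 in the deficient pool (6 genes above background) and 101859.7 in the wild-type pool (8 genes). The Cd4Cre array detected 4 (median 0.68), of which Bpifa2 (1.03, or 0.89 with median centring) was higher past 2-fold. Connective tissue genes were nearly all at background, with 1 of 6 detected on the Foxp3Cre array (0.24) and 2 on the Cd4Cre array, 0 of them past 2-fold. Of the latter, Col1a1 had a bound of -0.14 and Col1a2 gave no fold. Of 5 platelet genes 2 were detected on the Foxp3Cre array (median 1.21), of which Pf4 (2.51) was higher past 2-fold. The Cd4Cre array detected 3, with 0 past 2-fold: Pf4 was higher by 1.94-fold or more, Gp1bb lower by 1.66-fold or more, and Itga2b gave no fold. The median of 0.11 is the middle of the bounds of Pf4 and Gp1bb, which point opposite ways, and is not read as a level. Of 7 stem and progenitor genes 3 were detected on the Foxp3Cre array (median 0.09), of which Cd34 (1.56), which mast cells also carry, was higher past 2-fold. With median centring the median was 1.21 and 2 were higher, Ly6a then reading 1.21 in place of 0.09. The Cd4Cre array detected 4 (median 0.69), of which Ly6a (1.30) was higher past 2-fold, and Cd34 was higher by 1.49-fold or more. Of 8 genes of type 2 innate lymphoid cells, 6 were detected on each array. The Foxp3Cre array had a median of -0.04 (0.08 with median centring), with Klrg1 (1.54) and Il1rl1 higher past 2-fold. In the Cd4Cre comparison the median was -0.52, Rora (1.198) was higher past 2-fold and Areg was lower by 2.33-fold or more. Across the 4 pools, log2 signals ran from 14.33 to 15.80 for Ly6a and from 10.80 to 13.36 for Klrg1. The stem and progenitor list and the innate lymphoid list are therefore not read as signal of those cells. What the cells or tissues of these lists add to the signals of the mast cell and basophil genes was not tested.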

How the data were processed

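The members and the gene lists were chosen with earlier results of these data known. Per the labels, amplified RNA was labelled by the Kreatech ULS method and hybridised to 2-colour Agilent arrays. Agilent Feature Extraction read the images, per the file headers in version 10.7.3.1 for the Foxp3Cre array and 10.5.1.1 for the Cd4Cre array; per the submitters' processing notes the version was 10.5.1. What the authors deposited was mean and local background intensity per spot and channel, and a log10 ratio of red over green that the software had background-subtracted, detrended and dye-normalized. The error of that ratio, an error-model score, was deposited with it. The deposited value table equalled this ratio (largest difference 0), so its scale and direction are known.

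Intensities were corrected with normexp (offset 50) and log2 ratios normalized by loess within each array, with limma 3.58.1 (R 4.3.3), control spots having weight 0. Channel signals were set on a common scale by Aquantile. The software marked 155 spots on the Foxp3Cre array and 137 on the Cd4Cre array as outliers, and these were left out. Repeated spots were averaged, and the probe with the highest mean signal over the 4 pools stood for its gene. Probes were named through a RefSeq table of GRCm38.p6, used for names only: accessions matched 24844 of 41174, symbols another 6045 and synonyms 1810, which left 8475 with the name in the files. Members were matched by the file's name. A bound, used where 1 channel was above background, took as the dim level either that probe's own signal or, if higher, the channel's dimmest signal called well above background, and is open to dye bias. Where the bright signal did not exceed that level no fold is given, and medians of ratios or bounds leave such genes out. No spot was saturated, and the number of arrays limits the precision. The normalization was tested on simulated data with changes planted in brighter spots only. That check does not cover dim signals such as those of Cpa3, Mcpt4, Cma1 and Mcpt8.

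Named genes are the members, up to 4 genes per list and array with the largest size past 2-fold, and the 5 genes nearest to Cpa3 and to Mcpt4. Others, such as Hdc, Cd200r3, Gata2, Mitf and genes given as not detected, were named after their values were seen. Tests were left out, since each Cre system had 1 array. The alternatives numbered 10, and 1 more was chosen after seeing the data. Ear2 of the eosinophil list was not analysed here.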

Additional observations from a re-analysis of the deposited data

Results flagged for a closer look

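Mcpt4 was higher in the deficient pool of the Foxp3Cre array and nearly even on the Cd4Cre array. It was at least 2.35 (log2) higher in the deficient pool of the Foxp3Cre array and read -0.28 on the Cd4Cre array, a difference of at least 2.62. With 1 array per Cre system the difference was not tested.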

How the results depend on the processing

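Cpa3, Mcpt4 and Cma1 were at least 2-fold higher on the Foxp3Cre array, and Kit on the Cd4Cre array, under every setting that gave them a value. Their log2 values ran from 2.30 to 4.41, from 2.20 to 4.30, from 2.005 to 2.99 and from 2.19 to 2.79. Mcpt8 passed 2-fold on the Foxp3Cre array in 4 of 11 settings (0.74 to 3.50). These 4 are not separate checks: the software's ratio and the equal deposited table both gave 3.50. The measured ratio, used without the filter and in place of bounds, gave 1.39 both times. No value past 2-fold changed sign. On the Foxp3Cre array the median of the members was 3.50 with the software's ratio and with the deposited table, and 0.25 without a filter on dim probes. With signal required in both channels it was 1.21, and 1 member (Cma1) of 2 was past 2-fold. Of all 13453 genes under that setting, 3.08% were higher past 2-fold and 10.8% lower. On the Cd4Cre array 2 members were past 2-fold with the software's ratio and the deposited table (Kit higher, Tpsb2 lower), beside 15.1% of all genes higher and 18.7% lower. Without the filter 2 were past 2-fold there (Kit and Mcpt8 higher). Without the filter 1.60% of all genes were higher past 2-fold on the Foxp3Cre array (6.28% lower) and 6.50% in the Cd4Cre comparison (6.03% lower). Median centring moved the median of all detected genes to 0.19 on the Foxp3Cre array and 0.12 on the Cd4Cre array. The software's background estimate in normexp, chosen after seeing the data, changed no count of members. Signal near background limits Mcpt8, Tpsb2 and the undetected members, and also the size of the Foxp3Cre differences of Cpa3, Mcpt4 and Cma1. In the wild-type pool of that array, the log2 signals of Cpa3 and Mcpt4 lay at -0.33 and -0.35 from the dimmest signal called well above background, and that of Cma1 at 0.22.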
